A study of Mus musculus with 24 samples.

Results

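Late-cleared maternal transcripts are messenger RNAs that the egg inherits, that last through the zygote and that are largely gone in the 2-cell embryo. Here they were defined in wild-type mice as protein-coding genes with a mean of at least 50 FPKM in metaphase II (MII) oocytes and in late pronuclear (PN5) zygotes, and a 2-cell mean of at most 20% of the PN5 mean. FPKM counts sequenced fragments per kilobase of a transcript and divides by library size. Genes of the Nlrp, Obox, Oas1, Tcl1, Zp, Cnot, Oosp and mitochondrial groups and H1foo were set aside by symbol, which removed 12 genes that met the levels. The rule found 84 members among 21897 protein-coding genes. Its ratio was close to the edge for Snx2, Fbxw19 and Nae1 (19.6, 19.6 and 19.8% left), and just outside it lay Mphosph6, Sc5d and Dazl (20.1, 20.2 and 20.2%). Wild-type MII, PN5 and 2-cell libraries chose the members, so the fall in wild type (called for all 84, and for 14.8% of the 13398 genes tested there) describes the choice. The knockout libraries took no part in it.

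The libraries came from wild-type mice and from Nlrp14 knockout mice, whose label is HO in the sample titles, at 4 stages. These were germinal vesicle (GV) oocytes, MII oocytes, PN5 zygotes and 2-cell embryos, with 3 libraries for each genotype and stage and 5 oocytes or embryos pooled in each library. The study addressed female infertility and arrest of the early embryo. Strain, age, the deleted sequence, the sires and the hours of collection are not stated in the labels. Pools of 5 do not tell a transcript kept by a few embryos from one kept in part by all of them.

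Growing mouse oocytes store messenger RNA and stop transcription before ovulation. The stored transcripts are then removed in waves: a maternal wave during meiotic maturation, in which the adaptor BTG4 brings the CCR4-NOT deadenylase to messages, and a zygotic wave around the first cleavage that needs new transcription, with YAP1 and TEAD4 among the known factors. The library kit primes on poly(A) tails, so a reading can move with tail length as well as with the number of molecules. NLRP14 is an oocyte protein of the NLR family, and its transcript is here the check on the genotype labels.

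The last bases of the 3′ untranslated region (3′ UTR) are where cytoplasmic polyadenylation and decay factors read a maternal message, so 30-base windows are shown for the members with the most and the least negative knockout change from PN5 to 2-cell. Capitals mark TTTTAT, a form of the cytoplasmic polyadenylation element, or, in transcripts without it in their last 100 bases, the polyadenylation signal AATAAA. Sequences are DNA letters of GENCODE M21 transcripts on GRCm38, 5′ to 3′ in the sense of the gene. The 6 members with the most negative change were these.
Bub1b: tttcactgtgtaTTTTATaataaaatagtt
Txnip: tttgtaaaaaaaAATAAAgttttttaatga
Tubb3: gtctgtTTTTATggtttgttttgttttttt
Copb1: acatttttgttaTTTTATaaataaattact
Cept1: gagactaactgaAATAAAtacatgtgttct
Zar1: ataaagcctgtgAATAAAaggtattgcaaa
Those windows lie at chr2:118641553-118641582 (plus strand) for Bub1b, chr3:96561827-96561856 (plus strand) for Txnip, chr8:123421916-123421945 (plus strand) for Tubb3, chr7:114215569-114215598 (minus strand) for Copb1, chr3:106502262-106502291 (minus strand) for Cept1 and chr5:72577117-72577146 (minus strand) for Zar1. Of the 6 members with the least negative change, 5 held a motif and are shown here, and Gm7145 held neither.
Ldhb: agctcctgatcaAATAAAgttagcaattgc
Mgst3: aacacctatacaAATAAAcgttaactgttt
Trappc2: catcactcttttTTTTATttcttaaataaa
Cldn34b2: aataaaatattaTTTTATgggtagtattga
Dpy30: aaagaccttcaaAATAAActgttaaaacac
They lie at chr6:142490255-142490284 (minus strand) for Ldhb, chr1:167371969-167371998 (minus strand) for Mgst3, chrX:166453098-166453127 (plus strand) for Trappc2, chrX:155124974-155125003 (minus strand) for Cldn34b2 and chr17:74299485-74299514 (minus strand) for Dpy30. Each window lies within 1 exon, in the 3′ UTR. Both groups held transcripts with and without TTTTAT.

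Nlrp14 itself averaged 1937 FPKM in wild-type and 28.4 FPKM in knockout GV oocytes, and 106 against 26.4 FPKM at the 2-cell stage, with no overlap of libraries at any stage. Depth implied by the deposited values made 1 fragment in a 1 kb transcript worth 0.0813 to 0.131 FPKM. The lowest value of any member in any library was 1.39 FPKM. Of 14 oocyte markers, 13 or 14 had a mean of at least 1 FPKM in each group, and 32 of 33 genes of a 2-cell zygotic list rose from PN5 to 2-cell in the knockout. Summed granulosa markers lay between 26.3 and 59.8 FPKM in all libraries. Wild-type PN5 replicate 1 stood apart by a fall of FPKM with transcript length (slope -0.18 on log2 length), as did knockout GV replicate 3 (-0.13) and knockout MII replicate 2 (-0.10). The other libraries lay between -0.07 and 0.10. At PN5 every knockout slope (0.08, 0.06 and 0.10) lay above every wild-type slope (-0.18, -0.07 and 0.02). Summed FPKM rose from 316791 to 321414 in knockout PN5 to 486048 to 507768 in knockout 2-cell embryos, so a share of the library falls further between these stages than FPKM does.

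The members together held a large share of the egg's summed FPKM and a small share in wild-type 2-cell embryos. Their share was larger in knockout than in wild-type 2-cell embryos. A share moves with the other RNA of the library and is not an amount of RNA per embryo. As a percentage of summed FPKM they held 11.2 to 11.4% in wild-type and 11.7 to 12.4% in knockout GV oocytes, and 14.9 to 15.4% and 15.2 to 15.5% in MII oocytes. In PN5 zygotes the wild-type libraries stood at 10.7, 13.1 and 13.7% and the knockout libraries at 15.2, 15.4 and 15.2%. Wild-type 2-cell embryos had 0.833, 1.19 and 0.944%, and those of the knockout 2.80, 4.20 and 3.75%. The 2-cell groups did not overlap (0.989 ± 0.184% against 3.58 ± 0.711%, SD, n = 3). Bcl2l10 carried a large part of the sum, and without it the 2-cell means were 0.838 ± 0.129% and 2.52 ± 0.482%. The PN5 groups also did not overlap as percentages, with the lowest wild-type value in replicate 1. Before division by the library total, the members' summed FPKM did overlap at PN5. Each knockout sum (48624, 48739 and 48700 FPKM) fell inside the wild-type range of 44024 to 49426 FPKM. The PN5 library totals were what differed, at 316791 to 321414 FPKM for the knockout against 322159 to 462297 FPKM for wild type.

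**Figure D1:**
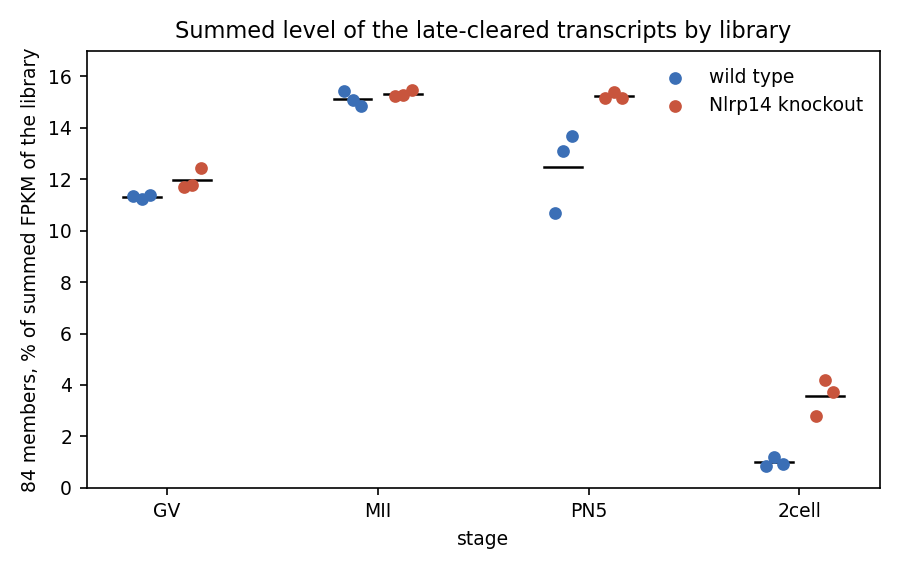
Summed FPKM of the 84 members as a percentage of the summed FPKM of each library (vertical axis) at 4 stages (horizontal axis); each point is 1 library and each bar the mean of 3. The members hold 10.7 to 15.5% of the library through PN5, and at the 2-cell stage the knockout points (2.80 to 4.20%) lie above the wild-type points (0.833 to 1.19%).

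Within the knockout, most members still fell between PN5 and the 2-cell stage. In 76 the share of the PN5 level kept was larger than in wild type, where the rule limited it. The fall was called (limma, adjusted p under 0.05 over all genes tested) for 69 of 84 members, against 26.8% of all 11450 genes tested, and the median change was -1.88 on the log2(FPKM + 1) scale (interquartile range -2.66 to -1.11) against 0.31 for all genes. A single member was called higher (43.8% of all genes were) and 14 were not called. The 2-cell libraries lay below the PN5 libraries for 70 members and above them for 1 (29 and 46.9% of all genes). A comparison set of 380 genes that met the same MII and PN5 levels but kept more than 20% in wild type had 192 called lower and 102 called higher, with a median of -0.43. Scaling to the library's summed FPKM (TPM) gave 78 members lower, none higher and a median of -2.52 against -0.14 for all genes.

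The share of the PN5 level left at 2-cell had a median of 27.0% in the knockout (interquartile range 16 to 48.9%). It was 20.8, 29.6 and 27.5% when each knockout 2-cell library was read alone. The wild-type median, held under 20% by the rule, was 12.6%. By share of summed FPKM the medians were 17.4 and 9.92%. In the knockout 31 members kept at most 20%, 32 kept more than 20 and up to 50%, and 21 kept more than 50%. Those above their PN5 mean were 4, namely Gm7145, Trappc2, Cldn34b2 and Dpy30. The knockout share was above the wild-type share in 76 members, at least 2 times it in 52 and at least 5 times it in 13. The rule limited only the wild-type share, so these counts are in part fixed by the choice. The comparison set kept 51.8% in wild type and 74.2% in knockout, so a larger knockout share was seen there as well. Read with the rule's own limits, 28 of the 84 would have been chosen from the knockout libraries.

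**Figure D2:**
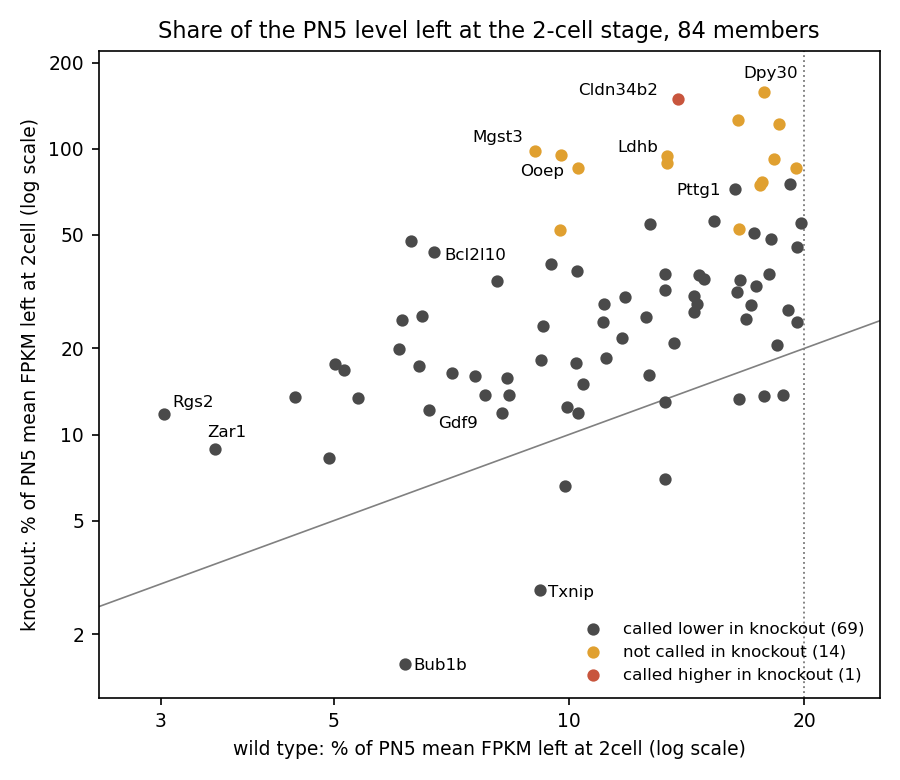
Share of the PN5 mean left at the 2-cell stage in wild type (horizontal, log scale, limited to 20% by the rule and marked by the dotted line) and in knockout (vertical, log scale) for the 84 members, coloured by the call of the knockout change; the grey line marks equal shares. Of the members, 76 lie above the line, Bub1b and Txnip lie furthest below it, and 4 lie above 100% in knockout.

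**Figure D3:**
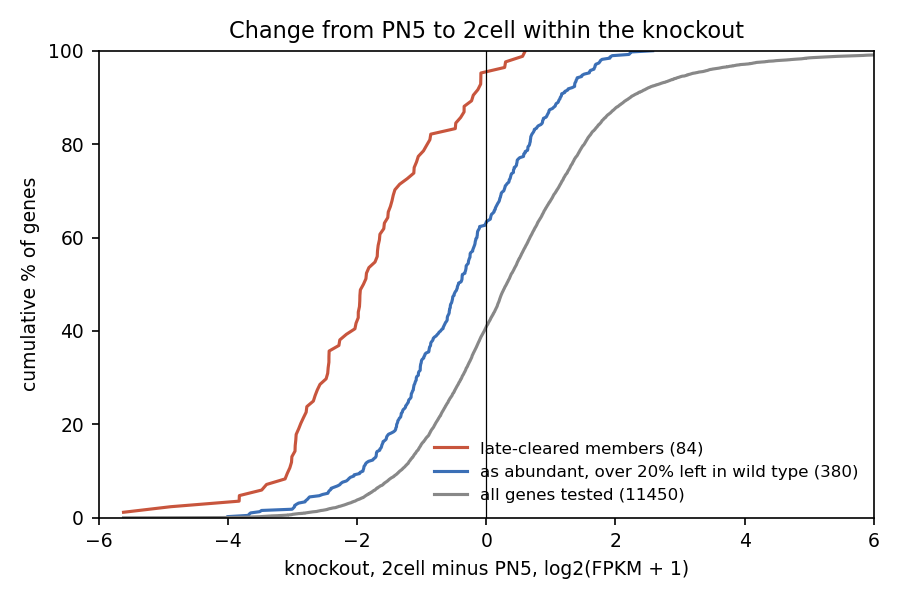
Cumulative percentage of genes (vertical) against the knockout change from PN5 to 2-cell in log2(FPKM + 1) (horizontal) for the 84 members, the 380 genes past the same minimum levels that kept over 20% in wild type, and all 11450 genes tested. The medians are -1.88, -0.43 and 0.31.

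The 14 members without a called change in the knockout had 51.8 to 157% of their PN5 mean FPKM at 2-cell. They were Ldhb, Mgst3, E330034G19Rik, Dpy30, Ooep, Crabp2, Gm13084, Gm7145, Trappc2, D6Ertd527e, Dnajb4, Mbl2, Elobl and Taf9b, the last 5 being named after their values were seen. Their products have varied known roles, such as lactate metabolism (Ldhb), histone methylation (Dpy30), retinoic acid binding (Crabp2), vesicle tethering (Trappc2) and transcription initiation (Taf9b). Lack of a call does not show that a level was kept. D6Ertd527e, at 51.8%, had 6.17, 60.5 and 88.8% in the single knockout 2-cell libraries (log2 -1.58, SE 0.87, adjusted p = 0.14). As TPM most members were called lower, Ldhb, Mgst3 and E330034G19Rik among them. Cldn34b2, a claudin family gene, was the 1 member called higher (log2 0.56, SE 0.17, adjusted p = 0.017). That call was lost under TPM (log2 -0.06, adjusted p = 0.77), with the length trend removed (adjusted p = 0.41), in 1 fit of all 24 libraries (adjusted p = 0.16), and without knockout PN5 replicate 1 (adjusted p = 0.058) or 3 (adjusted p = 0.06) or 2-cell replicate 2 (adjusted p = 0.052). Its transcript is 97% identical to that of Cldn34b1, so its reads may be shared.

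Set beside wild type at the 2-cell stage, most members stood higher in the knockout, while the median over all genes was lower. The difference was positive for 79 of 84 members with a median log2 of 1.01, and all genes tested had a median of -0.44. It was called for 58 members, all higher, against 14% of genes higher and 40.3% lower. The comparison set leaned the same way, with 160 of its 380 genes called higher, 62 called lower and a median of 0.42. The 3 knockout libraries lay above the 3 wild-type libraries for 60 members (17.5% of all genes) and below them for 2 (44.6% of all genes). Low wild-type 2-cell values helped to choose the members, so these counts are descriptions. To set that choice aside, members were chosen again from 2 wild-type replicate numbers and compared with the replicate left out. With replicate 1, 2 or 3 held out, 88, 96 and 89 genes met the rule and the median 2-cell difference from the held-out library was 1.08, 0.93 and 0.91, against -0.51, -0.49 and -0.40 for all genes. All 3 knockout libraries exceeded the held-out one for 74, 76 and 67 of these genes, against 28.3, 24.9 and 26.1% of all genes tested. The median share left in the held-out wild-type libraries was 12, 13.2 and 16%, and in the knockout for the same genes 25.2, 28.5 and 31.5%. The knockout share was the larger one for 67, 84 and 82 of these genes. At most 20% was left in the held-out wild-type libraries for 61, 74 and 53 of them.

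The change from PN5 to 2-cell differed between genotypes in the same direction for most members. It was less negative in the knockout by a called amount for 50 members and more negative for 2, Bub1b and Txnip, against 13.8 and 31.9% of the 14986 genes tested, with a median difference of 1.18. The wild-type change is the one that the rule used, so these counts and this median are descriptions and lean upward by the choice. The comparison set, which the rule put on the other side of its limit, had 140 and 40 of its 380 genes called in these directions and a median of 0.44. Sums of other lists differed at 2-cell as well. Oocyte markers, 3 of which are members, had sums of 572 to 773 FPKM in wild-type libraries against 1471 to 1995 FPKM in knockout libraries. Blood, stroma and oviduct markers had sums of 49.8 to 82.3 against 15.8 to 25.3 FPKM. The latter sums rest on few genes. Of 15 listed, 4 in wild type and 3 in knockout averaged at least 1 FPKM. Of the 4 tested at 2-cell, 1 was called lower and 0 higher in the knockout. Granulosa markers summed to 35.9 to 51.5 and 28.7 to 39.2 FPKM. The part of these in the members' differences was not tested. A transcript that was kept cannot be told apart here from one that was made anew.

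The signalling genes held the most abundant member. Bcl2l10, a BCL2 family gene (chromosome 9, 75347758 to 75351632), read 10037, 11386 and 10926 FPKM in wild-type PN5 zygotes, and knockout zygotes held 12110.5, 11989 and 12005 FPKM. Wild-type 2-cell libraries read 502, 951 and 722 FPKM for it, and those of the knockout 4033, 6095 and 5581 FPKM. The knockout 2-cell libraries were all above the wild-type ones and all below their own PN5 libraries. Its knockout change was log2 -1.22, SE 0.15, adjusted p = 0.0002, which left 43.5% ± 8.92 (SD over the 3 2-cell libraries) of the PN5 mean, against 6.72% in wild type. Rgs2, which limits signalling through G proteins, went from 253, 234 and 254 FPKM to 19.4, 34.9 and 33.6 FPKM in the knockout. It had the lowest wild-type share of the set, 3.03%, and kept 11.8% in the knockout (log2 -3.08, SE 0.22, adjusted p = 1.6e-05). Its knockout 2-cell libraries lay above those of wild type, at 13.3, 11.7 and 17.7 FPKM.

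The metabolic member Ldhb and the abundant member Mgst3 had no called change in the knockout as FPKM, but were called lower as TPM. Ldhb, a lactate dehydrogenase subunit (chromosome 6, 142490249 to 142507957), fell in wild type from 1158, 1550.2 and 1204 FPKM to 139, 222 and 162 FPKM. In the knockout it read 1198, 1291 and 1609 FPKM at PN5 and 1197, 1427 and 1226 FPKM at 2-cell. The knockout values at both stages overlapped, with 93.9% ± 9.19 left and a change of log2 -0.08, SE 0.13, adjusted p = 0.59. Under TPM the change was -0.72 (limma adjusted p = 0.0026). Ldhb had also dropped between GV (2906 FPKM in wild type, 3434 in knockout) and MII (664 and 533). Mgst3, a microsomal glutathione transferase, read 609, 601 and 558 FPKM at PN5 and 362, 695 and 684 FPKM at 2-cell in the knockout. A single knockout 2-cell library was below and the other two above the PN5 values, and 98.5% ± 32.1 was left (log2 -0.08, SE 0.24, adjusted p = 0.77). Under TPM its change was -0.72 (limma adjusted p = 0.043), and without knockout 2-cell replicate 1 it was 0.23. In wild type it went from 1139.6, 841 and 572 to 58.7, 77.6 and 94.6 FPKM. Of the 46 measured genes of the metabolism list, Ldhb was the only member, and 13 of the 36 tested in the knockout change were called higher and 12 lower.

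The 4 members of the cell cycle list were all called lower from PN5 to 2-cell in the knockout, beside 32 lower and 15 higher of the 64 tested genes of that list. They kept 1.58% (Bub1b) to 72.3% (Pttg1) of their PN5 level, and the whole set kept 1.58 to 157%. Bub1b, a kinase-like protein of the spindle checkpoint (chromosome 2, 118598211 to 118641591), read 245, 169 and 267 FPKM at PN5 and 3.92, 2.97 and 3.88 FPKM at 2-cell in the knockout. Its wild-type values were 65.8, 81.8 and 125 and 7.48, 4.07 and 5.30 FPKM. All knockout PN5 libraries were above all wild-type ones, and all knockout 2-cell libraries were below all wild-type ones. It had the most negative knockout change of the set, log2 -5.61, SE 0.20, adjusted p = 7.8e-07, and kept 1.58% in knockout against 6.17% in wild type. Its 2-cell difference between genotypes was log2 -0.50 with an SE of 0.26 and was not called.

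Pttg1 encodes securin, which holds back sister chromatid separation. In the knockout it read 516, 599 and 477 FPKM at PN5 and 306, 453 and 392 FPKM at 2-cell, and in wild type 1029.5, 803 and 614 and 115, 129.8 and 154 FPKM. The knockout 2-cell libraries lay below their PN5 libraries and above all wild-type 2-cell libraries, with 72.3% left (log2 -0.48, SE 0.16, adjusted p = 0.031). That call was lost without knockout PN5 replicate 1 or 2 or 2-cell replicate 1 or 3 (adjusted p = 0.068, 0.1, 0.079 and 0.059). Ccnb2, the cyclin B2 gene, went from 238, 236 and 245 to 98.3, 126 and 123 FPKM in the knockout, and its wild-type 2-cell libraries read 33.0, 43.3 and 33.4 FPKM. The knockout libraries lay above wild type and below their own PN5 level, with 48.3% ± 6.31 left (log2 -1.05, SE 0.13, adjusted p = 0.00019). Aurkc, the Aurora kinase of meiosis, read 55.5, 55.2 and 56.8 FPKM in knockout and 25.8, 23.8 and 20.1 FPKM in wild-type 2-cell embryos. Its 2-cell groups did not overlap and the knockout kept 30.5% (log2 -1.69, SE 0.12, adjusted p = 1.5e-05).

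Both members of the mRNA storage list fell in the knockout to a small share of their PN5 level. Zar1, an oocyte RNA-binding protein needed to pass from egg to embryo (chromosome 5, 72576806 to 72581254), went from 138, 144 and 115 FPKM to 9.57, 14.8 and 10.8 FPKM. Its wild-type PN5 libraries were wide apart, at 37.0, 101 and 166 FPKM with replicate 1 lowest, and its wild-type 2-cell libraries read 2.28, 4.67 and 3.74 FPKM. Knockout 2-cell values were all above wild type, and the knockout kept 8.88% (log2 -3.40, SE 0.18, adjusted p = 4.5e-06). Slbp, which binds the stem-loop of histone messages, fell from 646, 762 and 727 to 52.2, 116 and 125 FPKM in the knockout (log2 -2.95, SE 0.31, adjusted p = 9.9e-05). The first of those 2-cell libraries lay among the wild-type values of 41.9, 48.7 and 66.1 FPKM.

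Genes for ubiquitin ligase subunits made up the largest named group of members. Of the 45 measured genes of that list 9 were members, namely Rfpl4 and 8 Fbxw genes, which code for F-box proteins with WD40 repeats and lie in 1 stretch of chromosome 9 (109217432 to 109702700). All 9 were called lower in the knockout change, beside 21 lower and 10 higher of the 43 tested, and 6 were called higher than wild type at 2-cell. The 8 Fbxw members kept 13.4 to 45.3% in the knockout, with a median change of -2.20. Fbxw24, the most abundant of them, read 3000.0, 2765 and 2562 FPKM at PN5 and 441, 559 and 546 FPKM at 2-cell in the knockout, and 4949, 3131 and 2589 and 357, 378 and 456 FPKM in wild type. Its 2-cell groups overlapped, its knockout change was log2 -2.43, SE 0.12, adjusted p = 3.2e-06, and 18.6% was left against 11.2% in wild type.

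Fbxw28 and Fbxw14 have transcripts 99.1% identical, so fragments could be split between them in counting. Fbxw28 kept 16% in the knockout, at 113, 167 and 158 FPKM against 69.3, 89.1 and 108 FPKM in wild-type 2-cell embryos. Fbxw14 kept 18.2%, at 109.5, 135 and 135 against 67.5, 87.6 and 95.1 FPKM. For both, every knockout library was above every wild-type library at 2-cell. Rfpl4, a RING finger gene of oocytes, was uneven between knockout libraries, with 742, 1899.6 and 739 FPKM at PN5 and 153, 732 and 278 FPKM at 2-cell. Replicate 2 was highest at both stages, its wild-type 2-cell values were 35.0, 54.6 and 82.8 FPKM, and the knockout share was 34.4% ± 27.1 (log2 -1.68, SE 0.59, adjusted p = 0.033). The Rfpl4 call was lost without knockout PN5 replicate 2 (adjusted p = 0.1) or 2-cell replicate 1 (adjusted p = 0.097) or 3 (adjusted p = 0.09).

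Gdf9 and Serpine2 code for proteins that oocytes secrete, and Ooep for a subunit of the subcortical maternal complex, an assembly under the egg membrane. Gdf9, a growth factor of the TGF-beta family that signals to the follicle (chromosome 11, 53431023 to 53437904), fell in the knockout from 1872, 1247 and 1740.5 to 173, 227 and 194 FPKM. Wild type had 536, 683 and 1146 FPKM at PN5 and 57.0, 79.0 and 20.7 FPKM at 2-cell. The knockout was above wild type in all libraries at both stages, and kept 12.2% against 6.63% (log2 -3.01, SE 0.18, adjusted p = 6.7e-06). Serpine2, an inhibitor of serine proteases, went from 60.1, 60.3 and 41.0 to 13.2, 21.5 and 14.1 FPKM and kept 30.3% (log2 -1.67, SE 0.23, adjusted p = 0.0004). Its wild-type 2-cell libraries, at 7.12, 7.94 and 7.23 FPKM, were all lower. Ooep, of the subcortical complex, had fallen from 1555 FPKM in wild-type GV oocytes to 164 at MII, and from 2160.2 to 204 in knockout. In the knockout it then read 159, 187 and 119 FPKM at PN5 and 73.7, 218 and 107 FPKM at 2-cell, with overlap and a wide spread (85.8% ± 48.7 left, log2 -0.34, SE 0.37, adjusted p = 0.43). Without 2-cell replicate 2 its fall was called (-0.77, adjusted p = 0.026), and without replicate 1 its change was 0.01. Wild-type 2-cell libraries of Ooep read 17.7, 15.5 and 39.2 FPKM, all below the knockout.

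None of the 51 genes of the chromatin list was a member, but members outside it include genes for chromatin proteins, such as Dpy30, Rbbp7 and Pcgf1. Dpy30, a shared subunit of the SET1/MLL histone H3 lysine 4 methyltransferases (chromosome 17, 74299474 to 74323944), read 642, 562 and 284 FPKM at PN5 and 66.9, 92.6 and 105 FPKM at 2-cell in wild type. Its knockout libraries read 373, 261 and 326 and 540.5, 654 and 317 FPKM. The knockout stages overlapped and 157% ± 53.6 was present at 2-cell, a change of log2 0.61, SE 0.27, adjusted p = 0.075 that was not called. The rise was called without 2-cell replicate 3 (0.91, adjusted p = 0.0048), and under TPM the change was -0.03. Rbbp7, a histone-binding protein of several chromatin complexes, fell in the knockout from 1476, 1464 and 1661 to 146, 272 and 272 FPKM (log2 -2.79, SE 0.24, adjusted p = 3.7e-05). It kept 15.0% against 10.4% in wild type. Pcgf1, a Polycomb protein, was already lower in knockout at PN5 (153, 144 and 137 FPKM against 471, 377 and 271) and at 2-cell read 38.4, 54.5 and 51.5 FPKM against 68.0, 66.0 and 60.1. It was 1 of the 2 members whose knockout libraries all lay under wild type at 2-cell, the other being Bub1b, although it kept 33.2% of its PN5 level (log2 -1.59, SE 0.15, adjusted p = 7.1e-05).

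Of the remaining abundant members, 2 uncharacterised genes differed in what was left. E330034G19Rik, the third most abundant member (chromosome 14, 24293214 to 24309966), read 2695, 2750.1 and 2835 FPKM at PN5 and 2213, 3201 and 2481 FPKM at 2-cell in the knockout, against 3945, 2944 and 2329.9 and 196, 316 and 389 FPKM in wild type. Its knockout stages overlapped and 95.4% ± 18.5 was left (log2 -0.09, SE 0.14, adjusted p = 0.59). Under TPM that change was -0.72 and called (limma adjusted p = 0.0032). E330021D16Rik was about as abundant at PN5, at 3444, 3493 and 3690.2 FPKM in knockout, and fell to 304, 539.5 and 592 FPKM (13.5% left, log2 -2.94, SE 0.23, adjusted p = 2.6e-05). Ccdc69, a coiled-coil protein gene, fell in both genotypes, from 2701, 2527 and 2619 to 329.5, 284 and 363 FPKM in knockout with 12.4% left, against 9.93% in wild type. Its 2-cell difference was log2 0.54 with an SE of 0.22 and was not called.

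The other members at the ends of the knockout range included Txnip, Copb1, Tubb3 and Cept1, which fell most after Bub1b, and Trappc2, which had no called change. Txnip, the thioredoxin-interacting protein gene, fell from 156, 167 and 157 to 4.53, 3.19 and 5.93 FPKM in the knockout and from 38.5, 106 and 139 to 8.33, 13 and 4.67 FPKM in wild type. Its 2-cell libraries overlapped between genotypes, its knockout PN5 libraries were all above wild type, and 2.85% was left (log2 -4.89, SE 0.19, adjusted p = 1.2e-06). Copb1, a subunit of the COPI vesicle coat, read 12.8, 14.9 and 14.0 FPKM in knockout and 15.2, 15.9 and 14.0 FPKM in wild-type 2-cell embryos, which overlapped (6.62% left, log2 -3.82, SE 0.13, adjusted p = 6.2e-07). Tubb3, a beta-tubulin, kept 6.97% (log2 -3.83, SE 0.25, adjusted p = 1.1e-05) and Cept1, an enzyme of phospholipid synthesis, kept 8.30% (log2 -3.48, SE 0.14, adjusted p = 1.3e-06). At the other end, Trappc2, of the TRAPP complex that tethers vesicles, read 106, 102 and 106 FPKM at PN5 and 106, 169 and 119.6 FPKM at 2-cell in the knockout (log2 0.30, SE 0.18, adjusted p = 0.17). That change was called with the length trend removed (0.57, adjusted p = 0.019) and was -0.33 under TPM. Its wild-type libraries had gone from 245, 143 and 108 to 16.4, 23.6 and 41.6 FPKM, all 2-cell values below the knockout.

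**Figure D4:**
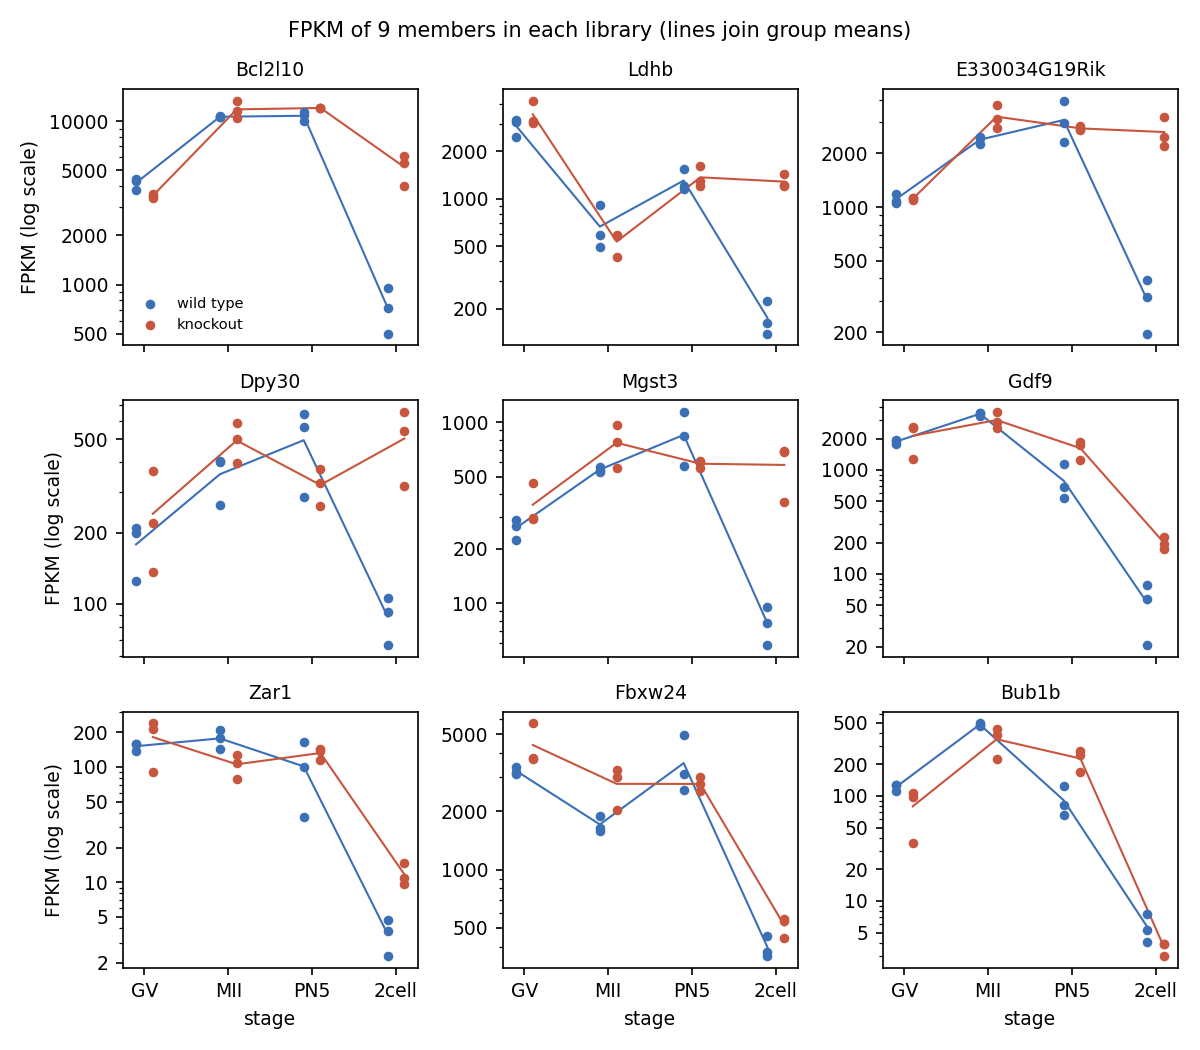
FPKM (vertical, log scale, each panel with its own range) of 9 members in each library at 4 stages (horizontal), wild type in blue and knockout in red, with lines joining the means of 3. Bcl2l10, Ldhb, E330034G19Rik, Dpy30 and Mgst3 stay high in knockout 2-cell embryos, with 43.5 to 157% of the PN5 mean, while Gdf9, Zar1, Fbxw24 and Bub1b fall in both genotypes and keep 1.58 to 18.6%.

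Before the 2-cell stage few members were called between genotypes. In simulated data these tests recovered 47.8, 59.7 and 14.9% of 2-fold changes at GV, MII and PN5, and 79.1, 89.6 and 77.6% of 4-fold changes. The test between genotypes at 2-cell recovered 16.4% of 2-fold and 79.1% of 4-fold changes. A gene without a call may thus still differ, above all at PN5 and at 2-cell. At GV, a stage the rule did not use, limma called 0 of 84 members, against 0.00859% called higher and 0.0344% called lower of the 11635 genes tested, and 2 higher and 6 lower had an unadjusted p under 0.05. The median difference was -0.02, and the knockout libraries lay apart from wild type for 11 members above and 12 below (8.14 and 14.8% of all genes). Wild-type MII and PN5 minimums chose the members, so the genotype differences at these stages are descriptions. At MII the median difference was 0.14 against -0.18 for all genes, and 1 member was called higher and 1 lower, against 0.32 and 1.96% of 8739 genes. The libraries lay apart for 20 members above and 10 below (8.35 and 26.1% of all genes). With wild-type replicate 1, 2 or 3 held out from the choice, the median MII differences from that library were -0.01, 0.03 and 0.21. For all genes they were -0.16, -0.17 and -0.22. All 3 knockout MII libraries exceeded the held-out one for 18 of 88, 28 of 96 and 41 of 89 genes (16.2, 18.3 and 17.6% of all genes). Slbp was higher in knockout, at 804, 934 and 957 FPKM against 582, 555 and 528 (log2 0.69, SE 0.13, adjusted p = 0.041). Gpm6a, a neuronal membrane glycoprotein gene, was lower, at 42.2, 33.4 and 47.2 against 78.2, 76.0 and 69.6 FPKM (log2 -0.86, SE 0.16, adjusted p = 0.041). In both cases the groups did not overlap, and both calls were lost without any 1 wild-type MII library (adjusted p from 0.19 to 0.23) and without knockout MII replicate 2 or 3 (0.059 to 0.17).

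At PN5 the median difference was -0.15, against 0.01 for all genes, with 1 member called higher and 6 called lower (0.569 and 5.53% of 9483 genes). The libraries lay apart for 20 members above and 22 below (16.1 and 24% of all genes). Across the 84 members the PN5 difference had a Spearman correlation of 0.52 with transcript GC and 0.32 with exon length. The slopes of FPKM on length also separated the genotypes at this stage, and their part in these differences was not tested. High wild-type PN5 values helped to choose the members, and with wild-type replicate 1, 2 or 3 held out from the choice the median differences from that library were 0.49, -0.16 and -0.06, against 0.22, -0.08 and -0.14 for all genes. Bub1b was the higher one (log2 1.33, SE 0.29, adjusted p = 0.043). Crabp2, a carrier of retinoic acid, was lower, at 127, 98.5 and 109 FPKM in knockout against 240.4, 285 and 228 in wild type (log2 -1.17, SE 0.20, adjusted p = 0.035). At 2-cell Crabp2 read 66.4, 121 and 111 FPKM in knockout against 26.7, 36.8 and 37.2, with no overlap at either stage. A high wild-type PN5 and a low wild-type 2-cell value are what the rule asked for, so this order of the genotypes is in part fixed by the choice. Gm13084, whose transcript is 98.0% identical to that of Oog2, read 173, 204 and 164 against 507, 361 and 367 FPKM at PN5 (log2 -1.18, SE 0.21, adjusted p = 0.036) and 130.2, 180.3 and 153 against 61.2, 82.7 and 97.2 FPKM at 2-cell. Cldn34b2 was lower at PN5 too, at 40.3, 49.3 and 36.5 against 150.4, 114 and 95.7 FPKM (log2 -1.48, SE 0.23, adjusted p = 0.034), as was Pcgf1 (log2 -1.32, SE 0.23, adjusted p = 0.036). The other two, Mbl2 and Zfp735, were named after their values were seen. Of the 5 tests printed here for PN5, none was called under TPM, under the median-of-ratios scaling, or without wild-type PN5 replicate 2 or any 1 knockout PN5 library (adjusted p from 0.057 to 0.19). Without wild-type PN5 replicate 3, 13 members were called higher and 26 lower.

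The wild-type MII minimum in the rule favours genes that rose into MII, so the counts of that step are descriptions. From GV to MII, 61 rose and 17 fell in wild type (31.1 and 52.8% of genes tested), with a median of 0.94, and 49 rose and 10 fell in knockout (20.8 and 48.2%), with a median of 1.03. The comparison set, chosen by the same MII minimum, had 267 higher and 86 lower in wild type and 224 higher and 52 lower in knockout. From MII to PN5, 6 rose and 6 fell in wild type (9.8 and 4.44%), and 7 rose and 25 fell in knockout (22.5 and 10.4%). The knockout count of falls was 34 without MII replicate 1 and 6 to 13 without any other MII or PN5 knockout library. The differences between genotypes in these steps were not tested.

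Genes that remove maternal messages were read beside the members. Of 39 decay genes listed, 33 were tested at 2-cell, and 8 were higher and 14 lower in the knockout, with a median of -0.32. Over all genes 14% were higher and 40.3% lower, with a median of -0.44. The decay list's share of lower genes lay near that of all genes, and its share of higher genes was larger. None of the decay genes was called at MII (28 tested) or PN5 (29 tested). Btg4, the CCR4-NOT adaptor, averaged 3489 and 2904 FPKM at PN5 in wild type and knockout, and 1217 ± 418 and 3892 ± 190.0 FPKM at 2-cell (SD, n = 3; limma across all genes, adjusted p = 0.00082). It kept more than 20% in wild type and is not a member. Lower in knockout 2-cell embryos were Pabpc1, a poly(A)-binding protein (14.3 against 2.70 FPKM, adjusted p = 0.00039), Tob1, a further deadenylase adaptor (28.9 against 7.97 FPKM, adjusted p = 0.00098), and Tut7, which adds uridines to messages (2.89 against 0.662 FPKM, adjusted p = 0.0018).

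Of 6 genes listed for zygotic clearance, 3 were tested at 2-cell and 2 were called lower. Wwtr1, the YAP1 paralogue, averaged 4.88 FPKM in wild type and 0.645 in knockout (adjusted p = 0.00069). Tead4, the transcription factor that partners YAP1, averaged 1.87 and 0.0599 FPKM (adjusted p = 0.0022), the latter less than 1 fragment in 1 kb. Yap1 averaged 11.2 and 7.67 FPKM and was not called (adjusted p = 0.11). The 2-cell zygotic list as a whole had sums of 3288 to 4254 FPKM in wild-type libraries against 3167 to 4842 FPKM in knockout libraries. Of its 34 genes tested at 2-cell, 6 were called higher and 14 lower in the knockout, against 14 and 40.3% of all genes. Their median difference was -0.23. The part of these genes in the members' levels was not tested.

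What the members shared beyond the rule was looked for in their transcripts. Their 3′ UTRs were short, with a median of 402 nt against 683 nt in the comparison set and 884 nt in other tested protein-coding genes. Motifs were sought on the sense strand in the last 100 nt of 3′ UTRs of at least 100 nt, with overlaps between motifs allowed. TTTTAT was found in 25 of 75 members (33.3%), in 24.8% of the comparison set and in 16.5% of other genes. By what was left in the knockout, it was in 32.1% of members with at most 20%, 32.1% of those with over 20 to 50% and 36.8% of those with over 50%. The signal AATAAA was in 74.7% of members, 72.8% of the comparison set and 68.8% of other genes. For the AU-rich TATTTAT these were 10.7 (8 of 75 members), 5.99 and 4.49%, and for the Pumilio motif TGTANATA 4, 4.36 and 5.23%. These are counts of letters and not of bound sites. Across the 84 members the knockout change had a Spearman correlation of 0.52 with the wild-type share left and -0.33 with exon length, given as descriptions over genes that share the same libraries. On chromosome 9 lay 13 members, 8 of them the Fbxw genes.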

How the data were processed

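RNA of 5 pooled oocytes or embryos per library was sequenced, and each of 24 libraries was deposited by the authors as FPKM values for 55487 gene identifiers. The kit was SMART-Seq HT, per the labels' protocols, and StringTie with GRCm38 was used, per the submitters' processing notes, which give no version and no annotation. Of the identifiers 55141 matched GENCODE M21, which supplied gene types, and 346 did not. No spike-in is named, so FPKM is a share of each library. Fragment numbers were read from the steps of low values, of which 98.82 to 99.2% were whole within 0.02 (multiples to 30). They limit counting error only.

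Tests used limma 3.58.1 (trend, robust) in R 4.3.3 on log2(FPKM + 1) for genes with at least 1 FPKM in 3 libraries of the groups compared, with Benjamini-Hochberg adjustment over all genes tested and a threshold of 0.05. Every adjusted p in the text is from limma in this form, 2-sided. Fold changes on this scale understate changes of low genes. Labels call the replicates biological, and p-values rest on how far these libraries differ. The scripts were tested on simulated data with known changes. Transcripts were compared by BLAST 2.17.0, with identity of at least 90% over 50% of the transcript taken as a near copy.

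The members and the gene lists were chosen with earlier results of these data known. Genes named in the text are Nlrp14, the 8 most abundant members at wild-type PN5, the 6 most and 6 least negative knockout changes, up to 4 members of each list, up to 4 members per direction called between genotypes at GV, MII or PN5, the 6 largest differences of change, 3 genes on either side of the limit, and up to 4 other decay or clearance genes by smallest p at 2-cell. Alternatives were other pseudocounts, filters and scalings, removal of the length trend, 1 fit of all libraries, a replicate block, and leaving out each library. Near-identical copies were left out as an alternative chosen after seeing the data.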

Additional observations from a re-analysis of the deposited data

Results flagged for a closer look

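The test of the difference between the knockout and wild-type changes from PN5 to the 2-cell stage called 50 members less negative and 2 more negative in the knockout (limma, adjusted p under 0.05). Because wild-type PN5 and 2-cell values chose the members, these differences are descriptions. The most positive log2 differences were those of Cldn34b2 (3.55), Mgst3 (3.34), E330034G19Rik (3.29), Dpy30 (3.02), Ooep (2.96) and Gm5065 (2.91). Trappc2 (2.88), Ldhb (2.83), Bcl2l10 (2.72), Gm7145 (2.71), Crabp2 (2.67), Gm13084 (2.12) and Pttg1 (2.11) followed. Smaller differences were those of Rfpl4 (1.98), Rgs2 (1.84), E330021D16Rik (1.57), Ccnb2 (1.34), Serpine2 (1.18), Fbxw28 (1.06), Aurkc (1.04), Fbxw14 (0.95) and Pcgf1 (0.89). The 2 members that fell further in the knockout were Bub1b (-1.84) and Txnip (-1.67).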

How the results depend on the processing

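Of the 70 members called in the knockout change from PN5 to 2-cell, 65 were called in all 15 alternatives and 69 kept their direction, with 66 to 70 called lower without 1 library and a median of -2.009 to -1.741. Of the 58 higher at 2-cell 45 were called in all 15, with 47 to 65 and 0.8297 to 1.195 without 1 library, and of the 52 differences of change 35 were called in all 21, with 40 to 55 and 1.068 to 1.273. Percentages of members called lower in the knockout were 90.3 with a limit of 1/10, 70.5 with 1/2, 81.4 from 100 FPKM, 85.8 from 20 FPKM and 83.5 without near copies, which also gave 67.1% higher at 2-cell. The held-out medians ran from 0.9121 to 1.077.

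TPM moved medians to -2.523 (knockout PN5 to 2-cell), -3.296 (wild type), -0.118 and -0.3124 (MII to PN5, knockout and wild type), 1.234 and 1.232 (GV to MII), -0.1062 at GV, -0.03724 at MII, 0.09441 at PN5 and 0.9103 for the difference of changes, and the shares left to 17.42 and 9.916%. It turned the knockout changes of Cldn34b2 (-0.06023), Dpy30 (-0.02755) and Trappc2 (-0.33). Median-of-ratios scaling gave 0.03375 at GV, 0.3079 at MII, 1.343 at 2-cell, 1.159 for knockout GV to MII and -0.3946 for knockout MII to PN5. A pseudocount of 5 gave -2.743 for wild-type PN5 to 2-cell, and removing the length trend gave 0.7961 for wild-type GV to MII. Members lower at MII (1 as reported) numbered 0 with a pseudocount of 0.1, no filter, median-of-ratios scaling, 1 fit of all 24 libraries or the replicate block, and 2 under TPM. Those lower at PN5 (6) numbered 0 with no filter, either scaling or the block, and 12 in 1 fit. At GV 1 was called in 1 fit. Falls from MII to PN5 numbered 5 with no filter and 12 in 1 fit in the knockout, and 3 with no filter in wild type. The cause of these moves was not tested.

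Same-numbered libraries had correlations of -0.27 to 0.27 between genotypes at each stage and between knockout PN5 and 2-cell. These values show no clear pairing by number, but with 3 libraries per group they cannot exclude it, and other steps were not read. With the replicate block the counts were 70 lower in the knockout change, 62 higher at 2-cell, 51 for the difference of changes, 22 lower from MII to PN5 in knockout and 7 in wild type, 50 and 61 higher from GV to MII in knockout and wild type, and 0 at GV. Without 1 library the counts ran from 43 to 51 (knockout GV to MII, median 0.9686 to 1.073), 59 to 61 (wild type, 0.8931 to 0.9367), 6 to 34 (knockout MII to PN5, -0.3208 to -0.2132), 2 to 15 (wild type, -0.04823 to 0.09444), 84 to 84 (wild-type PN5 to 2-cell, -3.034 to -2.847), 0 to 5 (GV, -0.04341 to -0.008265), 0 to 10 (MII, 0.05285 to 0.2136) and 0 to 26 (PN5, -0.1862 to -0.07227). The wild-type MII to PN5 median was 0.02969 without MII replicate 1, 0.01428 without PN5 replicate 1 and 0.09444 without PN5 replicate 3. The shares left ran from 24.95 to 29.29% and from 11.34 to 13.07%. Without 1 library the knockout change ran from -0.1721 to 0.04054 for Ldhb, -0.2357 to 0.03032 for E330034G19Rik, -0.2424 to 0.2269 for Mgst3 and -0.7706 to 0.005154 for Ooep, with no positive value called. Depth, at 0.0813 to 0.131 FPKM for 1 fragment in 1 kb, limits members little, the lowest value being 1.39 FPKM.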
